A study of Rattus norvegicus with 5 samples.

Results

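The antioxidant genes of glutathione, thioredoxin and metallothionein metabolism were compared in the parietal cortex of young rats with and without kaolin-induced hydrocephalus. A list of 39 genes was matched to the names of 41012 non-control probes, using the array's own gene names with current and older rat symbols. For 37 of the 39 a probe was found, 50 probes in all, and these carry 39 current symbols because the array's Gsta3 and Gstm3 names have since moved to other genes. The remaining 2 names, Gsta4 and Mt2A, matched no probe, although a single probe that the array describes as metallothionein-2 is reported beside the list and not counted in it. Of these 39 symbols, 37 were tested, with 46 probes whose signal cleared background by the scanner software's criterion in either channel on 3 or more arrays, out of 24821 tested genes and 29114 tested probes on the array.

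Kaolin, a clay suspension that obstructs the flow of cerebrospinal fluid, or saline was given to rat pups on postnatal day 1, and cortex was taken on postnatal day 22, 21 days after the injection. Total RNA of a kaolin sample, labelled with Cy3, and of a saline sample, labelled with Cy5, was hybridised to each of 5 Agilent 2-colour arrays. Strain and sex are not given in the sources used here, and neither is whether a sample was 1 animal, so p-values measure the spread between these 5 arrays. The dyes were never exchanged, so a gene-specific dye effect and an effect of kaolin cannot be told apart. Every ratio below is log2 of kaolin over saline. RNA came from whole tissue, in which fewer cells of a type and less RNA per cell cannot be told apart.

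The scanner software called 27956 to 29385 probes per array above background in kaolin and 27372 to 28930 in saline, and no spot was saturated. The array of replicate 2 stood apart from the others. Its correlation over all tested probes was -0.370 with replicate 1 and between -0.172 and -0.0617 with replicates 3, 4 and 5, whereas the other pairs lay between 0.121 and 0.825. The labels give the same dye orientation for all 5 arrays, so the direction of replicate 2 was kept, and results are also given without it. Only replicate 5 came from a second slide, so values without replicate 5 are the values within a slide. All 7 neuron markers (such as Rbfox3, Snap25 and Slc17a7) were well enough above background to be tested in these cortical samples.

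Glutathione is a tripeptide made in a pair of steps by glutamate-cysteine ligase (Gclc with its modifier Gclm) and glutathione synthetase (Gss), and glutathione reductase (Gsr) regenerates it. Glutathione peroxidases and peroxiredoxins reduce hydrogen peroxide and lipid peroxides, glutathione transferases couple glutathione to reactive compounds, and thioredoxins keep most peroxiredoxins reduced. Metallothioneins are small cysteine-rich proteins that bind zinc and copper. The transcription factor Nrf2, the product of Nfe2l2, is held back by Keap1 and acts through the antioxidant response element in the promoters of many of these genes. In the brain, astrocytes are known as the main glutathione suppliers to neurons.

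No antioxidant gene passed an adjusted p of 0.05 (limma, Benjamini-Hochberg over all tested probes), and neither did any other of the 24821 tested genes (0%). The smallest adjusted p was 0.243, over the array and among these genes alike. At an unadjusted p under 0.05, which carries no control for the number of probes, 13 of the 37 were higher in kaolin and 0 lower, where 8.47% of all tested genes were higher and 9.82% lower. The 13 were Gpx1, Gpx3, Mgst1, Gsta1, Gsta3, Gstp1, Gstt2, Prdx1, Prdx4, Prdx6, Txn1, Nfe2l2 and Nqo1. A mean difference of at least 1.5-fold was reached by 3 genes, Mgst1, Gpx1 and Mt1, all toward kaolin (1.93% of all genes), and by 0 genes toward saline (2.12%). That count was 5, with Gpx3 and Prdx4 added, in the authors' table, the processed signals and with a normexp offset of 0, 7 with array weights, 8 without replicate 2 and 2 without replicate 5, which dropped Mt1. With the sign of replicate 2 turned it was 5, with Prdx1 and Prdx4 added. The share of all tested genes at 1.5-fold was counted in the main analysis only. The counts under the other settings therefore have no share beside them and cannot be read as a result about this list.

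Ratios were positive on all 5 arrays for 6 genes, Gsta1, Gpx3, Nfe2l2, Gstt2, Gclc and Txnrd1 (5.79% of all genes), and negative on all 5 for 0 (6.93%). For Txnrd1 and Gstt2 this held by the brightest probe only, with values of 0.00084 on replicate 5 and 0.0034 on replicate 2. No other tested probe of these genes was positive on all 5 arrays. The mean ratio was positive for 35 of 37 genes under the main normalization, against 48.1% of all tested genes, but for only 17 of 37 when each array was centred on its median in place of loess, against 30.9% of all genes. These genes had bright probes: their median log2 signal was 11.2, against 8.48 over all tested genes, and 28 of the 37 lay above the median of all. Under median centring the median of all tested probes was -0.096, against -0.0033 under loess. Loess removes a trend with signal from each array, whereas median centring removes a single value per array, so the shift between these settings depends on signal. Which of them is closer to the RNA levels was not tested. The 17 that stayed positive include all 13 genes named above, while the 18 that turned negative all had means of 0.27 or less, so the sign of such small means cannot be read without naming the normalization.

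**Figure D1:**
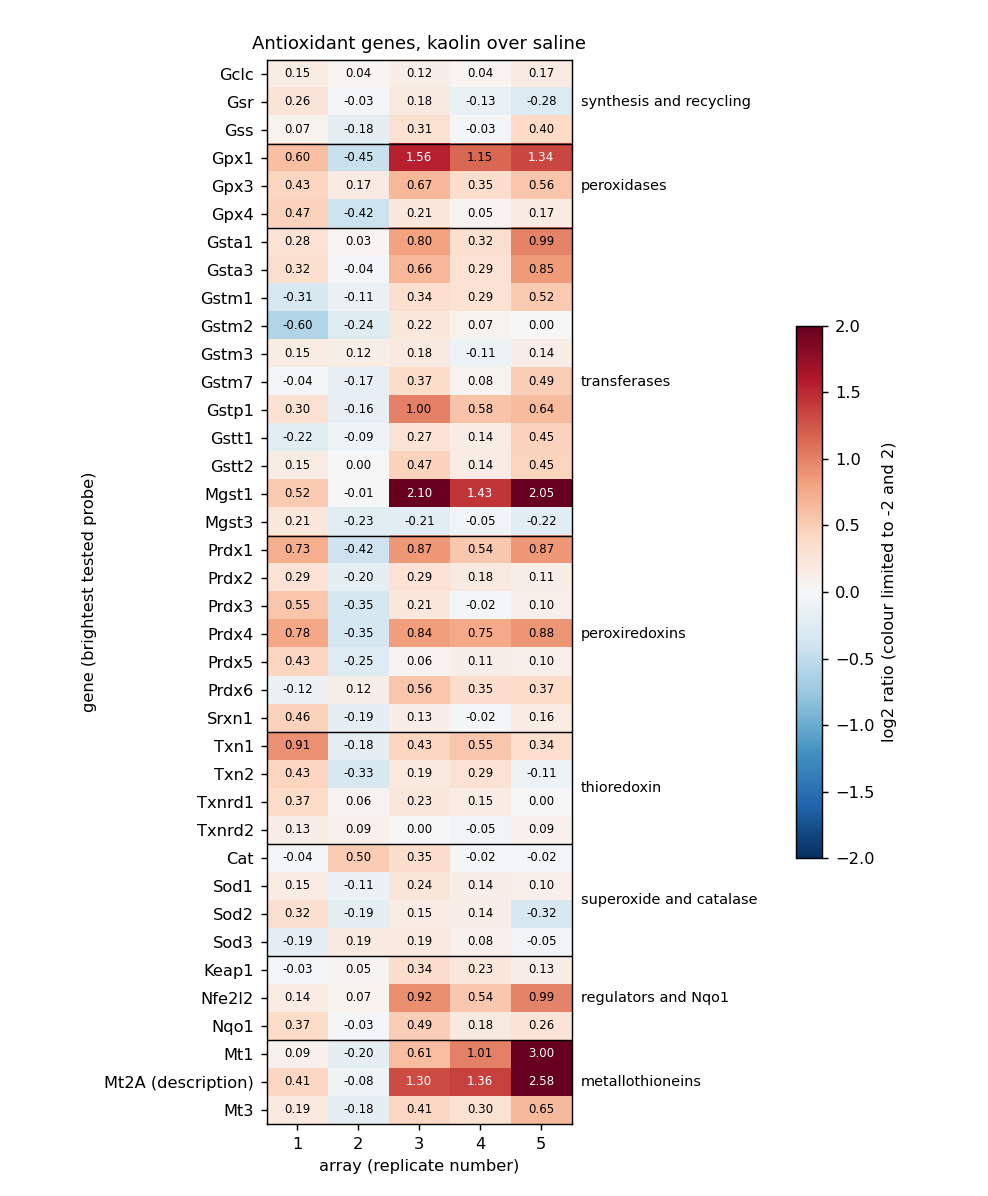
Log2 ratio of kaolin over saline for the 37 tested antioxidant genes and the metallothionein-2 probe (labelled Mt2A, description) on each of the 5 arrays, in columns, grouped by role. Red is higher in kaolin and blue lower. Mgst1, Gpx1, Mt1 and the metallothionein-2 probe were most positive on replicates 3, 4 and 5, replicate 2 was mostly near or below 0, and under median centring 18 of the positive means turned negative.

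**Figure D2:**
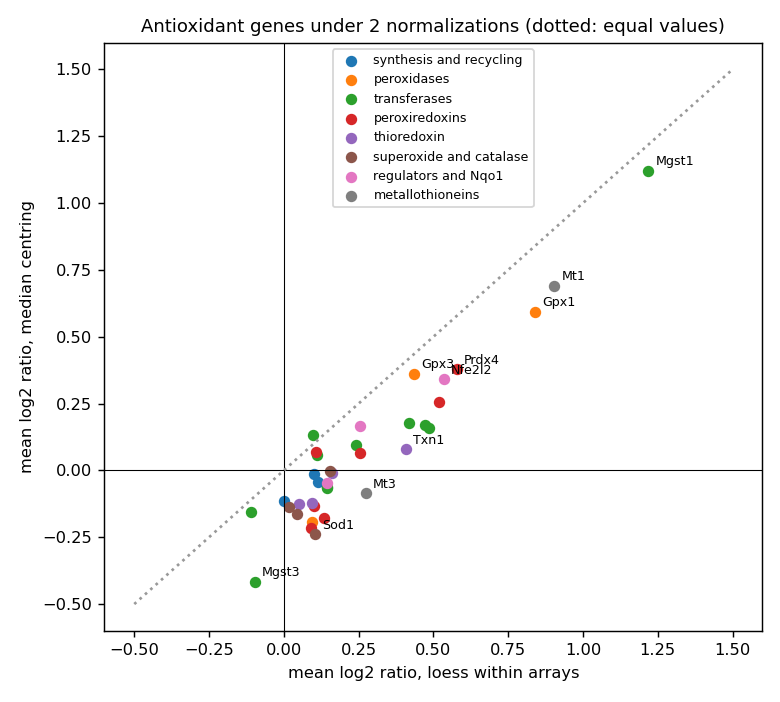
Mean log2 ratio over 5 arrays of each of the 37 genes after loess within arrays (horizontal) and after median centring (vertical), coloured by role. The 18 genes at lower right, below 0 on the vertical axis only, changed sign, while Mgst1, Mt1 and Gpx1 stayed above 0.5 on both axes.

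Markers of other cell types differed between the arrays as well. Of 8 microglia and macrophage markers (such as Tyrobp, Aif1 and Cd68) 7 were tested, and all 7 were higher in kaolin at an unadjusted p under 0.05 (8.47% of all tested genes). Their medians were -0.11, 0.11, 2.10, 1.35 and 1.57 on replicates 1 to 5, and their summed intensity was 15241 to 73042 in kaolin against 12509 to 15310.0 in saline samples. The high ratios of Mgst1, Gpx1, Nfe2l2, Mt1 and the metallothionein-2 probe described below were on the same 3 arrays, replicates 3, 4 and 5, whereas Txn1 was highest on replicate 1. The astrocyte markers Gfap and Vim were also highest on these 3 arrays, whereas Slc1a3, Slc1a2, Aldh1l1 and S100b of the same list had negative means, as given in the next paragraph. All 7 tested microglia and macrophage markers were above background in both channels on all 5 arrays, and their part in the results was not tested.

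Erythroid markers were included because red cells are rich in Gpx1, Prdx2 and catalase. Of 7 listed 5 were tested, 0 higher and 1 lower at an unadjusted p under 0.05, with medians of -0.52, -0.68, 0.43, -0.11 and 0.25 and summed intensities of 8072 to 17325 in kaolin and 10500.2 to 14460 in saline. Astrocyte markers had 3 of 8 higher and 0 lower, with medians of -0.063, 0.24, 0.57, 0.057 and 0.47 and sums of 56064 to 129455 in kaolin and 62782 to 72562 in saline. Among them Gfap was at 0.39, 0.60, 2.81, 2.31 and 2.95 on replicates 1 to 5. Vim was at 0.037, 0.083, 2.72, 2.14 and 2.93. The mean was positive for 4 of the 8, and negative for Slc1a3 (-0.084), Slc1a2 (-0.074), Aldh1l1 (-0.012) and S100b (-0.14). Ependyma markers had 3 of 5 higher, with medians of 0.34, -0.18, 0.81, 1.10 and 0.52 and sums of 1177 to 3771 in kaolin and 1420.1 to 1895 in saline. Choroid plexus markers had 4 of 6 lower, or 3 of 4 without Otx2 and Clic6, which were tested only through their saline channel, with medians of -0.84, -0.63, -0.95, -0.36 and -0.088 and sums of 6675 to 9992 in kaolin and 8522 to 65148 in saline. At the same p, neuron markers had 1 of 7 lower, oligodendrocyte markers 1 of 6 lower, and endothelial (4 tested) and meningeal (7 tested) markers 0. At that p 8.47% of all tested genes were higher and 9.82% lower, the shares against which these counts are read. The part of any of these cell types in the results was not tested.

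**Figure D3:**
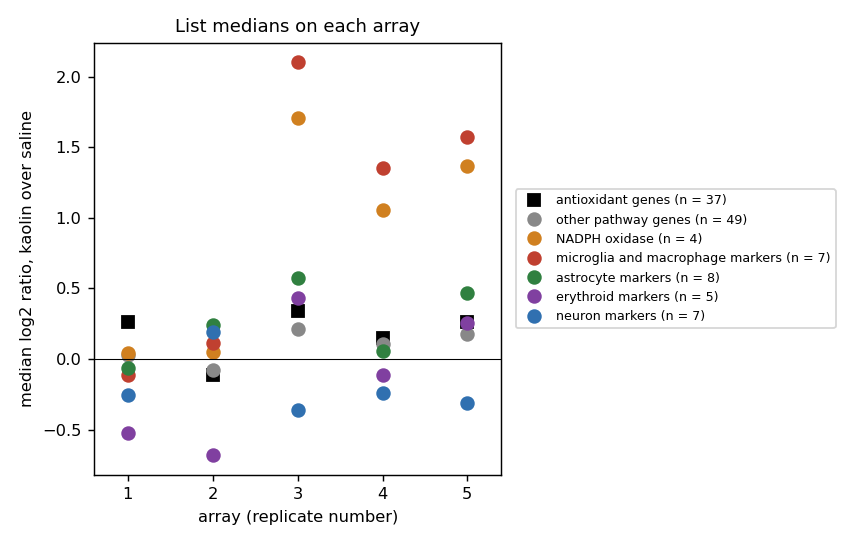
Median log2 ratio of kaolin over saline on each of the 5 arrays for the 37 antioxidant genes (black squares) and for lists of other pathway genes, NADPH oxidase genes and cell type markers (circles). Microglia and NADPH oxidase medians are above 1 on replicates 3, 4 and 5 only, while the antioxidant median lies between -0.11 and 0.34. The NADPH oxidase median includes Cybb, which was tested through its kaolin channel.

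Genes that make and recycle glutathione showed small ratios. The mean log2 ratio was 0.10 ± 0.061 (SD, n = 5) for Gclc, the catalytic subunit of the rate-limiting ligase, 0.11 ± 0.24 for Gss and 0.0021 ± 0.22 for Gsr. Gclc was positive on each array, between 0.036 and 0.17, but lay at -0.013 under median centring. None of the 3 had an unadjusted p below 0.152 (limma). Gclm, the modifier subunit, was well above background in 0 of 5 kaolin and 0 of 5 saline samples and was not tested.

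Among the glutathione peroxidases, Gpx1 had the larger ratio and Gpx3 the more even one. Gpx1, the abundant cytosolic enzyme, had normalized intensities of 7320.0, 4865, 16481, 10124 and 12995 in the kaolin samples of replicates 1 to 5 and 4843, 6642, 5581, 4569 and 5130.3 in the matching saline samples. Kaolin was higher on 4 arrays, and on replicate 2 it was lower, inside the saline range. The mean log2 ratio was 0.84 ± 0.80, or 1.79-fold (unadjusted p = 0.0198, adjusted p = 0.243, limma), and 0.59 under median centring. A second Gpx1 probe gave 0.83 ± 0.87, so both probes of the gene gave like values. The array places these probes at chr16_random of rn4, a fragment with no ordered position.

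Gpx3, the secreted plasma-type peroxidase, had kaolin intensities of 198, 191, 228, 176 and 242 and saline intensities of 147, 170.0, 144, 138 and 164. All 5 kaolin samples lay above all 5 saline samples, although the lowest kaolin and highest saline value are close. That separation was found for 2 of the 37 genes, Gpx3 and Gsta1, against 1.37% of all tested genes, and 0 genes had all kaolin samples below all saline samples (1.67%). The mean ratio of Gpx3 was 0.43 ± 0.19, with the smallest unadjusted p of the list, 0.00168 (limma, adjusted p = 0.243). It was 0.36 under median centring and 0.68 from the processed signals. Gpx4, which reduces phospholipid hydroperoxides in membranes, had a mean of 0.093 ± 0.33 that turned to -0.19 under median centring. The difference between Gpx1 and Gpx4 on the same array was 0.13, -0.026, 1.35, 1.10 and 1.17, a mean of 0.75 ± 0.64 that was positive on 4 of 5 arrays (exact sign-flip permutation test, two-sided p = 0.125, adjusted over 6 pairs 0.188). The 6 pairs were chosen with earlier results of these data known, so the p-values of all pairs are descriptions. Gpx2, the peroxidase of gut epithelium, was well above background on 1 kaolin array and 0 saline arrays by either of its probes and was not tested.

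Among the glutathione transferases, 5 of the 11 tested had an unadjusted p under 0.05, all higher in kaolin (Mgst1, Gsta1, Gsta3, Gstp1 and Gstt2), where 8.47% of all tested genes were higher and 9.82% lower. Under median centring the means of the last 4 were 0.16, 0.18, 0.17 and 0.095. Mgst1, a membrane-bound transferase with peroxidase activity, had intensities of 199, 158, 653, 395 and 606 in kaolin and 139, 159, 152, 147 and 146 in saline. The saline samples lay within a narrow range that the kaolin sample of replicate 2 did not leave, while replicates 3, 4 and 5 were far above it. With a mean log2 ratio of 1.22 ± 0.94, or 2.33-fold, Mgst1 had the largest ratio of the 37 (unadjusted p = 0.00705, adjusted p = 0.243, limma), and it kept 1.12 under median centring. Its probe lies at chr4:175254945-175255004 of rn4, the genome build of the array design; no exon annotation of that build was used here. Mgst3, the related microsomal enzyme, was lower in kaolin on 4 of 5 arrays, with a mean of -0.098 ± 0.19 and a second probe at -0.067.

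The alpha-class transferases were measured by a pair of probes that lie near each other on chromosome 9 of rn4. The probe that the array calls Gsta3, and that its accession now assigns to Gsta1, had kaolin intensities of 21727, 21169.5, 31883, 24601 and 38724 and saline intensities of 17872, 20663, 18347, 19709 and 19498. Kaolin and saline samples did not overlap, with replicates 3 and 5 highest. Its mean ratio was 0.48 ± 0.39 (unadjusted p = 0.0130, limma), and that of current Gsta3 was 0.42 ± 0.35 (unadjusted p = 0.0160). These paralogs are similar in sequence, so the probes may share signal.

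For Gstp1, the pi-class enzyme, kaolin intensities were 15192, 14528, 26382, 20020.2 and 22687 and saline intensities 12355, 16204, 13161, 13422 and 14585. Replicates 3, 4 and 5 were above every saline sample, while the kaolin samples of replicates 1 and 2 fell inside the saline range. The mean was 0.47 ± 0.43 (unadjusted p = 0.0205, limma), and a second probe, carrying the array's Gstp1 name where the first carries Gstp2, gave 0.32 ± 0.38. Gstt2 of the theta class had a mean of 0.24 ± 0.20 and 0.36 by its second probe, and Gstt1 0.11 ± 0.27.

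The mu-class genes, whose probes sit together on chromosome 2 of rn4, showed small ratios. Means were 0.15 for Gstm1, -0.11 for Gstm2, 0.098 for Gstm3 and 0.14 for Gstm7, each smaller than its SD. On replicate 1 Gstm2 was at -0.60 and Gstm1 at -0.31, while replicates 3 and 5 gave positive or near-zero values.

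**Figure D4:**
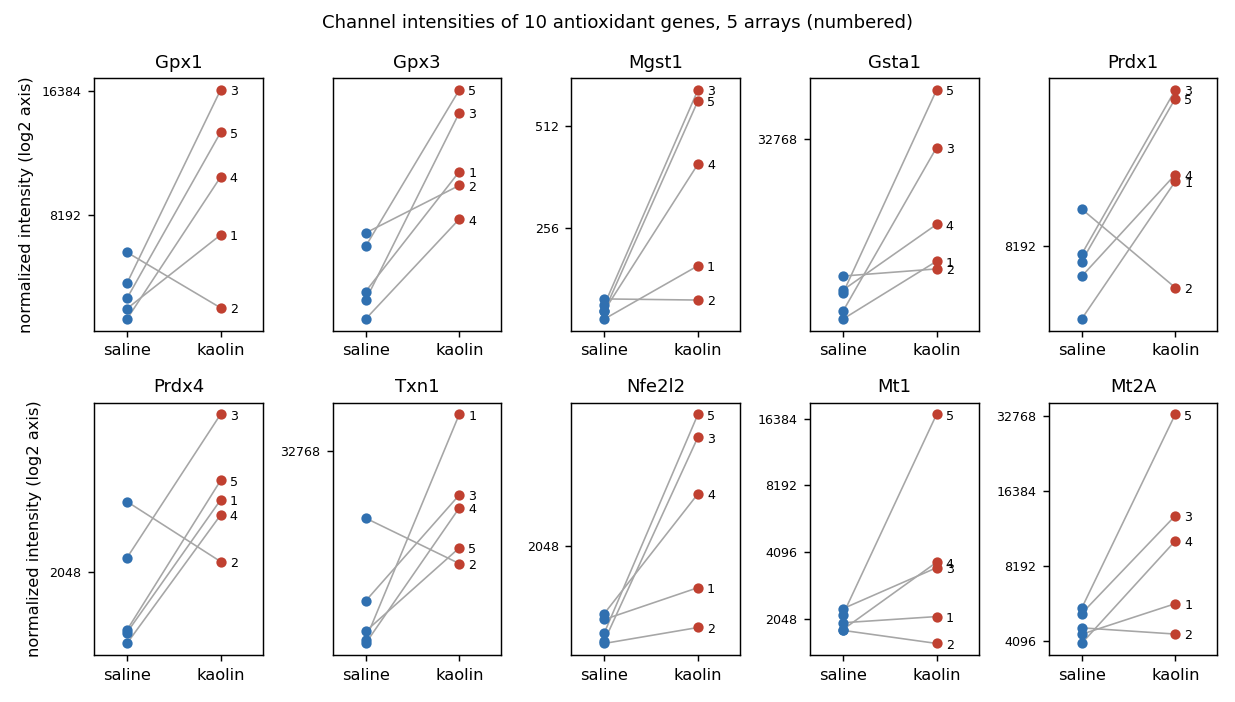
Normalized channel intensity (log2 axis, scaled separately for each gene) of 10 genes in the saline and kaolin sample of each array, joined by a line and numbered by replicate at the kaolin end. Mt2A stands for the metallothionein-2 probe. Gsta1 and Gpx3 separate the groups, the line of replicate 2 slopes down for Gpx1, Prdx1, Prdx4 and Txn1, and replicate 5 sets the top of both metallothionein panels.

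Peroxiredoxins are thiol peroxidases that, apart from Prdx6, thioredoxin recycles. Mean ratios were above 0.5 for Prdx1 and Prdx4, with SDs of similar size, and smaller for the other members. Prdx1, a cytosolic member, had kaolin intensities of 10398, 7028, 14569.6, 10666 and 14112 and saline intensities of 6259, 9394, 7945, 7324 and 7738. Prdx4, the member of the endoplasmic reticulum, had 2742, 2136, 3882, 2579 and 2967 in kaolin and 1601, 2724, 2168, 1532 and 1617 in saline. In both genes kaolin was higher on replicates 1, 3, 4 and 5 and lower on replicate 2, whose saline sample was the highest saline value.

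The mean ratio of Prdx1 was 0.52 ± 0.54 (unadjusted p = 0.0311, limma) and that of Prdx4 0.58 ± 0.52 (unadjusted p = 0.0174). Prdx6, which uses glutathione and not thioredoxin, had 0.26 ± 0.26 (unadjusted p = 0.0482). Under median centring these were 0.26, 0.38 and 0.065. Means were 0.13 for the cytosolic Prdx2, 0.10 for the mitochondrial Prdx3 and 0.090 for Prdx5, and these 3 were -0.18, -0.13 and -0.21 under median centring. Srxn1, the sulfiredoxin that repairs over-oxidised peroxiredoxins and a known Nrf2 target, was at 0.11 ± 0.24 and at -0.054 by a second, dimmer probe. Prdx1 minus Prdx2 was 0.44, -0.22, 0.58, 0.37 and 0.76 on the 5 arrays, a mean of 0.38 ± 0.37 (exact sign-flip permutation, p = 0.125, adjusted 0.188).

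In the thioredoxin system the cytosolic and mitochondrial proteins could be compared within arrays. Txn1, cytosolic thioredoxin, had kaolin intensities of 36269.6, 23901, 28949, 27921 and 24971 and saline intensities of 19325, 27138, 21528, 19122 and 19776, with replicate 1 the highest and replicate 2 the only array with kaolin below saline. Its mean ratio was 0.41 ± 0.40 (unadjusted p = 0.0275, limma), but only 0.080 under median centring. Txn2, the mitochondrial form, had a mean of 0.094 ± 0.31. Txn1 exceeded Txn2 on every array, by 0.48, 0.14, 0.24, 0.26 and 0.44, with a mean of 0.31 ± 0.14 (exact sign-flip permutation, p = 0.0625, which is the smallest that 5 arrays allow, adjusted 0.188).

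Thioredoxin reductases had small ratios. For Txnrd1, the cytosolic reductase, the brightest probe gave 0.16 ± 0.15 and 3 other probes gave means between -0.0082 and 0.040. Txnrd2, its mitochondrial counterpart, gave 0.052 ± 0.076, and the difference between both reductases was 0.11 ± 0.16 (exact sign-flip permutation, p = 0.25, adjusted 0.3).

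Superoxide dismutases, which turn superoxide into hydrogen peroxide, and catalase, which removes it, had a median ratio of 0.076 ± 0.092, or -0.15 under median centring. Of the 4 genes 0 had an unadjusted p under 0.05. The cytosolic Sod1 had a mean of 0.10 ± 0.13 and 0.011 by its second probe, the mitochondrial Sod2 0.019 ± 0.26, the extracellular Sod3 0.043 ± 0.16 and catalase (Cat) 0.15 ± 0.25. The mean of Cat rested on replicates 2 and 3, at 0.50 and 0.35, since the other 3 arrays were between -0.044 and -0.016. Sod2 minus Sod1 was -0.086 ± 0.21 (exact sign-flip permutation, p = 0.438, adjusted 0.438).

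Nfe2l2, which encodes Nrf2, had kaolin intensities of 1796, 1585, 2882, 2412 and 3096 against saline intensities of 1625, 1507, 1518, 1655 and 1557. Ratios were positive on all 5 arrays, but on replicate 2 the kaolin sample lay within the saline range. The mean was 0.54 ± 0.43 (unadjusted p = 0.0111, adjusted p = 0.243, limma), and 0.34 under median centring. Its inhibitor Keap1 was at 0.14 ± 0.15 and turned to -0.047 under median centring. Nqo1, a quinone reductase widely used as an Nrf2 target, was at 0.25 ± 0.20 (unadjusted p = 0.0254) and at 0.17 under median centring.

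Promoters were read to show where the antioxidant response element core occurs. RefSeq promoter sequences of the GRCr8 build, a later assembly than the rn4 of the array, were found for 35 of 40 symbols, with 39 start sites, and the 250 bases before each start were searched on both strands. The core, TGACNNNGC, was present in 10 of 39 of these windows (25.6%) and in 10.1% of all 33469. The 10 belong to Gclm, Gpx2, Gsta3, Gstm7, Gstp1, Mt1, Mt2A, Prdx1, Sod2 and Txnrd1, a group that holds genes with mean ratios above 0.4 and genes near zero or not detected. A match of letters is a description and not a shown binding site. Gstp1 (chr1:210769706-210769955, minus strand) and Prdx1 (chr5:135383656-135383905, plus strand) are shown, as genes at an unadjusted p under 0.05 that hold the core, written 5′ to 3′ toward the start site with the core in capitals.
Gstp1: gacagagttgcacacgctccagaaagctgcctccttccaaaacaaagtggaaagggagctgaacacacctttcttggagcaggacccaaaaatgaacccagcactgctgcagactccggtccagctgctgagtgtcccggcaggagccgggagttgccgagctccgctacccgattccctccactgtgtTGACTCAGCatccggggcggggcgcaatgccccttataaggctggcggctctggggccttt
Prdx1: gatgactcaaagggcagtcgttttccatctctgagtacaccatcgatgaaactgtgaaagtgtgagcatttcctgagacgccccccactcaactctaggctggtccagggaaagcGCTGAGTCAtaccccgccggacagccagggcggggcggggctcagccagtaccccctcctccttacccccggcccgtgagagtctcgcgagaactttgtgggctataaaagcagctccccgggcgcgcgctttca

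Mt1 and the metallothionein-2 probe had mean ratios of 0.90 and 1.11 that rested on replicates 3 to 5, and replicate 5 above all, whereas Mt3 had 0.27. Mt1 had intensities of 2101, 1590.0, 3489, 3693 and 17141 in kaolin and 1971, 1821, 2281, 1836 and 2141 in saline. The kaolin sample of replicate 5 was several-fold above every other sample, while that of replicate 2 was below every saline sample. Log2 ratios were 0.093, -0.20, 0.61, 1.01 and 3.0, with a mean of 0.90 ± 1.26 (unadjusted p = 0.0747, adjusted p = 0.306, limma), which became 0.38 without replicate 5. A second Mt1 probe was well above background on 1 kaolin array only and was not tested.

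The metallothionein-2 probe, at chr19:11268171-11268230 of rn4 and so between the brightest Mt1 probe (chr19:11261706-11261765) and the Mt3 probe (chr19:11284638-11284697), had 5790.2, 4375, 13031, 10330.3 and 33202 in kaolin and 4366, 4634, 5285, 4013 and 5542 in saline. Replicate 5 was again the highest kaolin sample, and that of replicate 2 lay inside the saline range. Ratios were 0.41, -0.083, 1.30, 1.36 and 2.58, a mean of 1.11 ± 1.02 (unadjusted p = 0.0158, limma). Mt3, the metallothionein typical of brain, had ratios of 0.19, -0.18, 0.41, 0.30 and 0.65 and a mean of 0.27 ± 0.31, which turned to -0.086 under median centring. The metallothionein-2 ratio exceeded that of Mt3 on every array, by 0.22, 0.096, 0.89, 1.06 and 1.93 (mean 0.84 ± 0.74, exact sign-flip permutation, p = 0.0625, the smallest that 5 arrays allow, adjusted 0.188).

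These 3 genes are neighbours on chromosome 19, and their promoters share the core of the metal response element, the site of the zinc-sensing factor MTF-1. The core was searched as TGCACNC or TGCGCNC on both strands. It was found at least once in 8 of the 39 windows of the antioxidant genes (20.5%) and in 20.6% of all, so its presence does not set the list apart. At least 3 copies were found in 3 of the 39 windows (7.69%), against 1.17% of all, and the 3 were Mt1 with 6, Mt2A with 4 and Mt3 with 3. They are shown with the cores in capitals, 5′ to 3′, from GRCr8 chr19:10832976-10833225, chr19:10838709-10838958 and chr19:10856081-10856330, all on the minus strand, because the genes with the larger and the smaller ratio both carry repeated copies.
Mt1: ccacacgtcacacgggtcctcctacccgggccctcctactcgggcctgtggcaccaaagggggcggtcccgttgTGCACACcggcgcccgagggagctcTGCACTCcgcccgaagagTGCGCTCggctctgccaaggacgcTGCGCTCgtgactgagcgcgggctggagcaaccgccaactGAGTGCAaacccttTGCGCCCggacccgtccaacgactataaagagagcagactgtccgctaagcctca
Mt2A: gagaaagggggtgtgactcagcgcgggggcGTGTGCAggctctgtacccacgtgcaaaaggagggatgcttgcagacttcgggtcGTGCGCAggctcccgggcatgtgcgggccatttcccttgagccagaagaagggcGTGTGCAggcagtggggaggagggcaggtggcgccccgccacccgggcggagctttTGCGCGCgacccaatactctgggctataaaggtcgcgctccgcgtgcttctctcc
Mt3: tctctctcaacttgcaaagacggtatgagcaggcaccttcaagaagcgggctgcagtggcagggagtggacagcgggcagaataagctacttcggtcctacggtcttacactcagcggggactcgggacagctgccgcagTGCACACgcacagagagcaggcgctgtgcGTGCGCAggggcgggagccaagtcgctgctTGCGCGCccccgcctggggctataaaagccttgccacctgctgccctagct

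Replicate 2 was singled out by its correlations in these same data. Counts made by leaving it out, weighting it down or turning its sign are therefore descriptions, and their adjusted p-values are not calibrated. Without replicate 2, 7 of the 37 genes passed an adjusted p of 0.05 (limma), all higher in kaolin, where 2.46% of all tested genes passed in that direction and 3.06% in the other. The 7 were Mgst1 with a mean of 1.52, Gpx1 with 1.16, Prdx4 with 0.81, Prdx1 with 0.75, Gstp1 with 0.63, Txn1 with 0.55 and Gpx3 with 0.50. Weighting every array by its fit to the others gave these 7 and Nfe2l2 (4.35% of all genes higher), turning the sign of replicate 2 gave Prdx1, Gpx1 and Prdx4 (0.882%), and leaving out any other array gave 0. Within the slide of replicates 1 to 4 the means were 1.01 for Mgst1 and 0.71 for Gpx1. The median over the 37 genes was 0.26, -0.11, 0.34, 0.15 and 0.26 on replicates 1 to 5, a mean of 0.18 ± 0.18, against medians between -0.015 and 0.0018 over all tested genes. Loess itself places the medians over all tested genes near 0. Under median centring the mean of the medians over the 37 genes was 0.015.

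Other genes of these pathways, 58 in a list with 49 tested, gave 0 at an adjusted p of 0.05 (limma) and at an unadjusted p under 0.05 9 higher and 2 lower in kaolin, shares to be read against 8.47% and 9.82% of all tested genes. The 4 with the smallest p among the higher were Pon2 (paraoxonase 2), with a mean of 0.39 ± 0.25, Sesn1 (sestrin 1) with 0.37 ± 0.27, Idh1, an NADPH-producing isocitrate dehydrogenase, with 0.30 ± 0.21, and Hmox1, heme oxygenase 1, with 1.40 ± 1.27. Hmox1 was near zero on replicates 1 and 2, at 0.029 and 0.060, and at 2.54, 1.79 and 2.57 on replicates 3, 4 and 5. Among the lower, Mtf1, the metal-sensing factor, had -0.25 ± 0.15 and Tkt, transketolase, -0.24 ± 0.19, and Mafg and Glrx2 came next at -0.25 ± 0.32 and -0.19 ± 0.29 without reaching that p. Slc7a11, the cystine importer that feeds glutathione synthesis, was at -0.085 ± 0.28. It cleared background on only 2 kaolin and 3 saline arrays, so this value lies near background.

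NADPH oxidase, the phagocyte enzyme that makes superoxide, was represented by 7 genes, of which 4 were tested. Cybb cleared background on 3 kaolin and 2 saline arrays, so it was tested through its kaolin channel. Each of the other 3 was higher in kaolin at an unadjusted p under 0.05 (8.47% of all tested genes). Means were 1.05 for Ncf1, 0.93 for Cyba, 0.70 for Rac2 and 0.46 for Cybb. Nox4 was not well above background on any array. Per array the median of the 4, Cybb included, was 0.041, 0.053, 1.71, 1.05 and 1.37. The other 3 genes were high on replicates 3, 4 and 5 as well. Ncf1 was at 0.025, 0.19, 2.18, 1.29 and 1.56 on replicates 1 to 5. Cyba was at 0.34, -0.44, 2.01, 1.33 and 1.43, and Rac2 at -0.0047, -0.016, 1.41, 0.81 and 1.30.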

How the data were processed

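Each array compared RNA of a kaolin sample (Cy3) with RNA of a saline sample (Cy5), as the labels give the dyes. The scanner files deposited by the authors hold mean spot and local background intensity per channel, flags, and a log10 ratio of Cy5 over Cy3, made with Agilent Feature Extraction 10.1.1.1 on an rn4 design, per the file headers. A table of log2 ratios deposited by the authors, whose normalization is not stated, tracked the sign-turned software ratios on every array (r from 0.978 to 1.00, medians -0.10 to 0.093), so it holds log2 of Cy3 over Cy5. Names in the annotation can be old; probes were named through RefSeq accessions or symbols where these matched, and coordinates are those of the array.

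Background was corrected by normexp with an offset of 50, ratios were normalized by loess within arrays with control spots at weight 0, and outlier-flagged spots were left out. Channel intensities were scaled between arrays on average signal (Aquantile). Probes flagged as clearly brighter than background in either channel on 3 or more arrays were tested against 0 with limma 3.58.1 in R 4.3.3, with Benjamini-Hochberg adjustment over 29114 probes, after a test on simulated data. A gene is its brightest tested probe. Errors are SDs over 5 arrays, whose number limits the precision. The 6 pairs of related genes were tested by exact two-sided sign-flip permutation.

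The genes, role groups, pathway and marker lists, pairs and motifs were chosen with earlier results of these data known. The p-values of the pairs are therefore not calibrated. All genes of the list are accounted for, and of the other pathway genes the 4 with the smallest p in each direction are named; Slc7a11 was added for its role, with its value seen.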

Additional observations from a re-analysis of the deposited data

Results flagged for a closer look

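In 3 of the 37 genes a single array lay apart from the other 4 by Dixon's criterion at the 95% level, and chance alone flags about 1 gene in 20. The share of all tested genes flagged in this way was not counted. Replicate 2 stood apart over all tested probes, so flags on it cannot be read as particular to these genes. Prdx1 was at -0.42 on replicate 2 and between 0.54 and 0.87 on the others. Prdx4 was at -0.35 on replicate 2 and between 0.75 and 0.88 elsewhere. Gstm3 was at -0.11 on replicate 4 and between 0.12 and 0.18 on the other arrays.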

How the results depend on the processing

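Counts past an adjusted p of 0.05 (limma) differed between alternatives. With all 5 arrays 0 of the 37 genes and 0 of 29114 probes passed. Array weights, which reweighted every array, gave 8 genes and 2826 probes, and turning the sign of replicate 2 gave 3 genes and 487 probes. Leaving out 1 array gave 0 to 7 genes and 0 to 1518 probes, the highest without replicate 2. Replicate 2 was picked from these same data, so counts without it, with weights or with its sign turned are descriptions. Median centring in place of loess gave 0 genes and 22 probes. The other alternatives (no background subtraction, offset 0, processed signals, the authors' table, the software's ratios, no filter or a stricter one, the slide as a random block) gave 0 genes and 0 probes.

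Signs of small means turned under some of these. Median centring gave Mt3 -0.086, Sod1 -0.24, Prdx2 -0.18, Prdx5 -0.21, Gpx4 -0.19, Prdx3 -0.13, Txn2 -0.12, Gstm7 -0.066, Gstm1 -0.061, Sod3 -0.16, Keap1 -0.047, Txnrd2 -0.12, Txnrd1 -0.011, Sod2 -0.14, Cat -0.0011, Gss -0.043, Gsr -0.12 and Gclc -0.013. Array weights put Gsr at -0.0099, and the turned sign of replicate 2 put Sod3 at -0.031 and Cat at -0.046. Single arrays decided signs as well, and with 1 array left out Gpx4 ran from -0.00022 to 0.22, Prdx3 from -0.013 to 0.21, Sod2 from -0.056 to 0.10, Gsr from -0.062 to 0.072 and Gstm2 from -0.19 to 0.011. The sign turned without replicate 1 in these 5 genes, without replicate 3 in Sod2 (-0.013) and Gsr (-0.043), and without replicate 4 in Sod2 (-0.011). The cause was not tested. The median over the 37 genes, 0.18 in the main analysis, was 0.015 under median centring and 0.14 to 0.25 with 1 array left out. The main analysis is already paired, because each array sets a kaolin sample against its own saline sample, so no further block by replicate number remains. Probes not above background, Gclm and Gpx2 among them, gave no usable value.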
